A study of Mus musculus with 9 samples.

Results

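The Cyp4a genes encode cytochrome P450 enzymes of the endoplasmic reticulum that hydroxylate the terminal (omega) carbon of fatty acids. The genes Cyp4a10, Cyp4a14, Cyp4a12a, Cyp4a12b, Cyp4a31 and Cyp4a32 were taken by their symbols and were found in both count tables, 6 of the 17154 genes that the tables shared. RNA-seq was run on whole livers of male C57BL/6 mice, with 3 libraries in each of 3 groups. MMI+T3 mice were made hypothyroid with 0.1% methimazole, a blocker of thyroid hormone synthesis, given for 20 days in the drinking water, and then received 5 daily injections of T3, the active thyroid hormone, before they were killed 24 h after the last one. MMI mice were given the same methimazole water and no T3. According to the study's methods the water of both groups also held sodium perchlorate, which blocks iodide uptake. CT mice were untreated C57BL/6J animals of 8 to 12 weeks, an age range that the methods give for the male mice of the study in general. The sources used here do not state a separate mouse for each library, and the p-values therefore reflect library-to-library spread, part of which may be technical.

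Omega hydroxylation is the first step of a side route of fatty acid oxidation, in which alcohol and aldehyde dehydrogenases then make dicarboxylic acids that peroxisomes shorten. In mouse liver, Cyp4a10 and Cyp4a14 are known target genes of PPARα, the nuclear receptor that fatty acids and fibrate drugs activate. Cyp4a12a is known as a male-biased form in mouse liver and kidney that hydroxylates arachidonic acid, and its near copy Cyp4a12b encodes a very similar enzyme. The separate roles of Cyp4a31 and Cyp4a32 are less well described.

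The 6 genes lay in one region of chromosome 4, within 322.6 kb from 115299046 to 115621602 (GRCm38). Their order along the plus strand was Cyp4a12a (ENSMUSG00000066071, 115299046 to 115332815), Cyp4a12b (ENSMUSG00000078597, 115411624 to 115439034), Cyp4a14 (ENSMUSG00000028715, 115486200 to 115496142), Cyp4a10 (ENSMUSG00000066072, 115518264 to 115533649), Cyp4a31 (ENSMUSG00000028712, 115563649 to 115579015) and Cyp4a32 (ENSMUSG00000063929, 115600969 to 115621602). Cyp4a14 was the only one of the 6 on the minus strand, so that Cyp4a14 and Cyp4a10 pointed away from each other with 22.1 kb between their starts.

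Since reads of near-identical copies can be split or lost in counting, the coding sequences were compared first. They are shown here because they decide which members can be measured apart. Around the codon of the cysteine that holds the heme iron, 120 coding bases of Cyp4a31 were the same as those of Cyp4a10, and those of Cyp4a12b were the same as those of Cyp4a12a. The 4 distinct stretches are printed in the coding direction from the GENCODE M21 transcripts, with capitals where a base differs from Cyp4a10.
Cyp4a10: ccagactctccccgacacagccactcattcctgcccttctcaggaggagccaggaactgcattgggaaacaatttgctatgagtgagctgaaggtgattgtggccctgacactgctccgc
Cyp4a14: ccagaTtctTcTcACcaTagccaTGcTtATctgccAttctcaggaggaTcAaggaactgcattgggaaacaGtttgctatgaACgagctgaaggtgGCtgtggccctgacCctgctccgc
Cyp4a12a: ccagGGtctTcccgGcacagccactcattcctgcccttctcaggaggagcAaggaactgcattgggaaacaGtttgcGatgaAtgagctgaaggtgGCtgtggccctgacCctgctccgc
Cyp4a32: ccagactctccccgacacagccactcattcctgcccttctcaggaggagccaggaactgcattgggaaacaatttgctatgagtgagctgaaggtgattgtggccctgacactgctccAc
Against Cyp4a10, this stretch differed at 20 bases in Cyp4a14, at 11 in Cyp4a12a and at 1 in Cyp4a32.

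The first 120 coding bases separated Cyp4a10 from its copies a little better, with 7 differences in Cyp4a31 and 2 in Cyp4a32, again in capitals.
Cyp4a10: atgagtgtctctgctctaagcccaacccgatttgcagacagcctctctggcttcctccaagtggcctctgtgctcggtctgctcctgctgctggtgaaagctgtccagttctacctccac
Cyp4a31: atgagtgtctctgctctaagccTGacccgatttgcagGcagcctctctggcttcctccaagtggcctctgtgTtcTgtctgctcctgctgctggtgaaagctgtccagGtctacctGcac
Cyp4a32: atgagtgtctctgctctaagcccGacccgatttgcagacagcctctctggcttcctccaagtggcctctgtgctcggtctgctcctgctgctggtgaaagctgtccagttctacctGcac
Over the whole coding sequence, Cyp4a10 had 97.19% identical columns with Cyp4a32 and 96.6% with Cyp4a31. Cyp4a12a and Cyp4a12b had 98.49%, with 23 substitutions in 1527 bases and one identical run of 342 bases. They differed most between coding bases 644 and 763, where capitals in Cyp4a12b mark the 8 bases that are not those of Cyp4a12a.
Cyp4a12a: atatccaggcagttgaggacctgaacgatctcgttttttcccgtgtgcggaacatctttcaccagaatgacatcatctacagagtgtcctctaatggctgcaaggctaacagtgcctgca
Cyp4a12b: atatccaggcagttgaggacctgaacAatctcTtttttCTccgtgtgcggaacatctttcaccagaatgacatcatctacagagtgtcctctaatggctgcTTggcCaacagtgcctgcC
Cyp4a14 stood apart, with 74.84% to 75.83% identical columns with the other members.

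**Figure D1:**
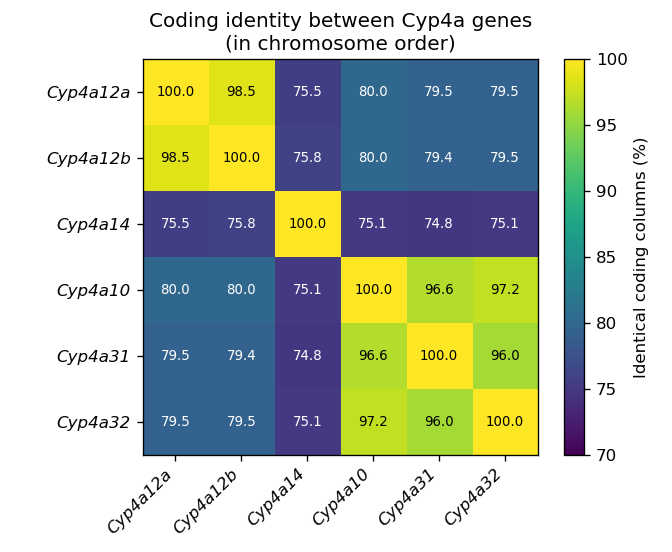
Share of identical columns in pairwise alignments of the coding sequences of the 6 Cyp4a genes, as a colour scale in percent, with genes in chromosome order on both axes. Cyp4a12a and Cyp4a12b form one close pair at 98.49%, Cyp4a10, Cyp4a31 and Cyp4a32 are between 96.01% and 97.19% identical to each other, and Cyp4a14 is at most 75.83% identical to any other member.

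The study's reads were 150 bases long, so each transcript was also cut into all of its words of 150 bases. Untranslated ends were included, except in Cyp4a32, whose transcript of 1530 bases was all coding. Of these words, 25.6% in Cyp4a12a and 25.91% in Cyp4a12b were shared with another gene, which was the partner of the pair. The shared portion was 7.97% in Cyp4a32, 4.34% in Cyp4a10, 4.19% in Cyp4a31 and 0% in Cyp4a14. How the counting treated reads that match several genes is not given in the sources used here, so the levels of all members but Cyp4a14 are uncertain. The shares above count exact matches of single words and do not bound that uncertainty. In MMI libraries, Cyp4a31 and Cyp4a32 counts were 0.863% to 2.16% of Cyp4a10 counts. A small portion of misassigned Cyp4a10 reads would thus weigh heavily on these 2 genes, which was not tested.

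The RefSeq promoter table (GRCm38.p6) matched 1 of the 6 members by symbol, Cyp4a32. The 250 bases before its RefSeq start, which lies upstream of the GENCODE start given above, chr4:115600688-115600937 on the plus strand, are printed because the family was measured under a thyroid hormone treatment.
Cyp4a32: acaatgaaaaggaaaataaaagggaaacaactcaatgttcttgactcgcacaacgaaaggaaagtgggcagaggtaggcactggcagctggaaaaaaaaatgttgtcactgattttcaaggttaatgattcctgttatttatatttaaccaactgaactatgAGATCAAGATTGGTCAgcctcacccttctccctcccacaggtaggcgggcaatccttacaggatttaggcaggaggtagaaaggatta
Capitals mark bases 163 to 178, a match with 2 mismatches to AGGTCA repeated after a gap of 4 bases, a spacing known from thyroid hormone response elements. Matches this good, on either strand, were found in 3.02% of 32851 promoters in windows of 300 bases. No exact AGGTCA on either strand (in 16.26% of promoters) and no repeat of it after 1 base with at most 2 mismatches, the spacing of PPARα elements (in 3.86%), was found in the 300-base window of Cyp4a32. These matches are letters only, and no binding was measured.

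Cyp4a genes took 0.0174%, 0.0199% and 0.0143% of all counts in MMI+T3 libraries, against 0.231%, 0.266% and 0.209% in MMI libraries and 0.0878%, 0.118% and 0.120% in CT libraries. Their summed level was 170.3 ± 29.0 CPM (a read count scaled to the size of its library, mean ± SD, n = 3) in MMI+T3, 2255 ± 346 CPM in MMI and 1153 ± 214 CPM in CT. The 3 groups did not overlap, with MMI+T3 lowest and MMI highest.

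**Figure D2:**
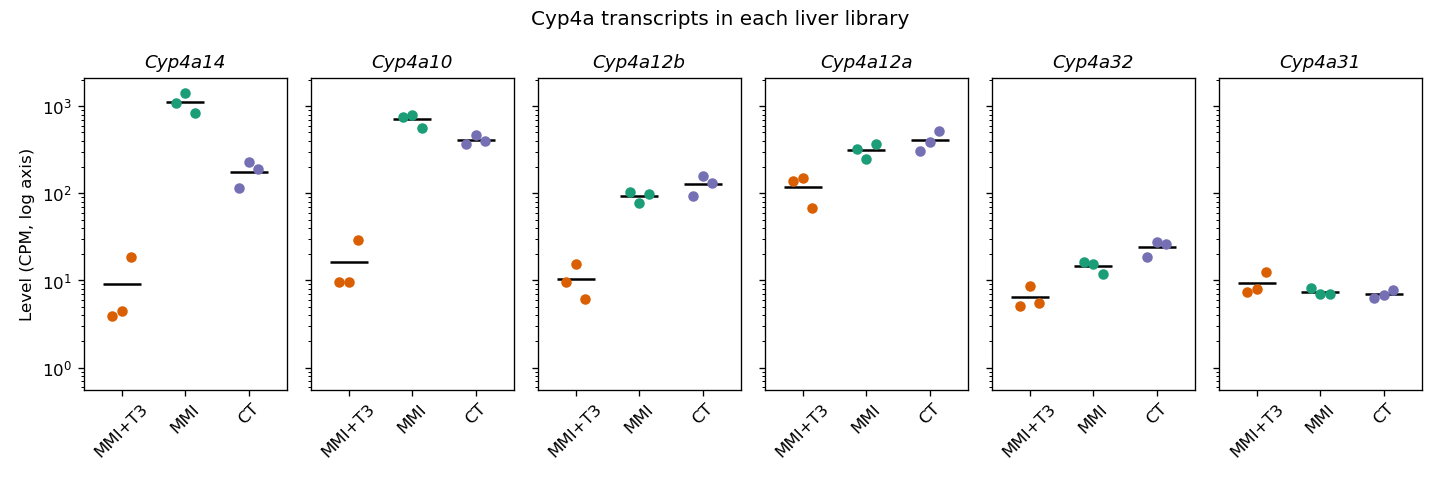
Level of each Cyp4a gene in CPM on a log axis, 1 panel per gene, with a point for each of the 3 libraries of MMI+T3, MMI and CT and a line at the group mean. Cyp4a14 and Cyp4a10 span the widest range, with group means of 9.01 and 16.1 CPM in MMI+T3 and 1118 and 710.3 CPM in MMI, while Cyp4a31 stays between 6.33 and 12.6 CPM in all 9 libraries.

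Library totals lay between 17256776 and 22599227 counts, both in MMI, and mitochondrial genes took 3.29% to 3.76% of the counts in 8 libraries and 4.99% in MMI replicate 3. As a check of the treatment, Dio1, the T3-responsive deiodinase gene, was at 890.6 ± 48.7 CPM in MMI+T3, 3.90 ± 0.77 CPM in MMI and 61.3 ± 18.3 CPM in CT. Hepatocyte markers such as Alb were abundant, with a summed level over 10 listed genes of 30632 to 32478 CPM in MMI+T3, 36930 to 42012 CPM in MMI and 48328 to 51978 CPM in CT. Of markers of kidney proximal tubule, another tissue known for Cyp4a expression, 1 of 6 was listed in both tables, Lrp2, at no more than 2.46 CPM in any library.

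The response of the members to T3 was examined in MMI+T3 mice relative to MMI mice. Of the 6 Cyp4a genes, 5 were lower in MMI+T3 and 0 were higher (edgeR's quasi-likelihood test, Benjamini-Hochberg adjusted p under 0.05 over 14109 genes). None was higher at an unadjusted p under 0.05 either, nor with DESeq2 or limma-voom. Among all genes tested, 7.18% were called lower and 9.83% higher. The decrease was largest in Cyp4a14 and Cyp4a10, intermediate in Cyp4a12b and smaller in Cyp4a12a and Cyp4a32.

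Cyp4a14, whose enzyme hydroxylates lauric acid, had 3.92, 4.52 and 18.6 CPM in MMI+T3 libraries, against 1083, 1434 and 835.9 CPM in MMI libraries. In raw counts these were 75, 93 and 382 in MMI+T3 and 23880, 33403 and 15925 in MMI. All MMI+T3 libraries were far below all MMI libraries, and MMI+T3 replicate 3 was the highest of its group. On the log2 scale the change was -6.96 (SE 0.60, 95% interval -8.29 to -5.63, edgeR adjusted p = 2.302e-05), the fourth lowest of the genes tested. Without MMI+T3 replicate 3 it was -8.06.

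Cyp4a10, the classical PPARα-inducible member, had 9.57, 9.72 and 29.0 CPM in MMI+T3 libraries, against 760.5, 801.0 and 569.3 CPM in MMI libraries. Again the groups did not overlap and MMI+T3 replicate 3 was above the other two of its group. Cyp4a10 had a log2 change of -5.47 (SE 0.44, 95% interval -6.44 to -4.51, edgeR adjusted p = 1.389e-05), which ranked as the 9th lowest of all genes tested. Leaving out MMI+T3 replicate 3 gave -6.21.

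Cyp4a12b had 9.57, 15.6 and 6.13 CPM in MMI+T3, against 103.5, 77.6 and 98.5 CPM in MMI. Cyp4a12a had 137.9, 151.2 and 68.1 CPM in MMI+T3, against 319.7, 247.4 and 370.1 CPM in MMI. For both genes of this pair every MMI+T3 library was below every MMI library, and here MMI+T3 replicate 3 was the lowest of its group rather than the highest. The change on the log2 scale was -3.18 in Cyp4a12b (SE 0.29, edgeR adjusted p = 3.013e-05) and -1.42 in Cyp4a12a (SE 0.27, edgeR adjusted p = 0.00428). With the counts of the pair added into 1 gene, the value was -1.67.

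Cyp4a32 had 5.12, 8.60 and 5.50 CPM in MMI+T3 libraries, against 16.4, 15.4 and 11.7 CPM in MMI libraries, with no overlap and a log2 change of -1.19 (SE 0.23, edgeR adjusted p = 0.004315). Cyp4a31 had 7.37, 8.02 and 12.6 CPM in MMI+T3 libraries, against 8.21, 6.91 and 6.93 CPM in MMI libraries. The Cyp4a31 groups overlapped, and its log2 fold change of 0.33 was not called (95% interval -0.18 to 0.84, edgeR adjusted p = 0.3815). Its interval excludes a decrease of the size measured for each of the other members. When the counts of Cyp4a10, Cyp4a31 and Cyp4a32 were added into 1 gene, the sum followed Cyp4a10, with -4.54.

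**Figure D3:**
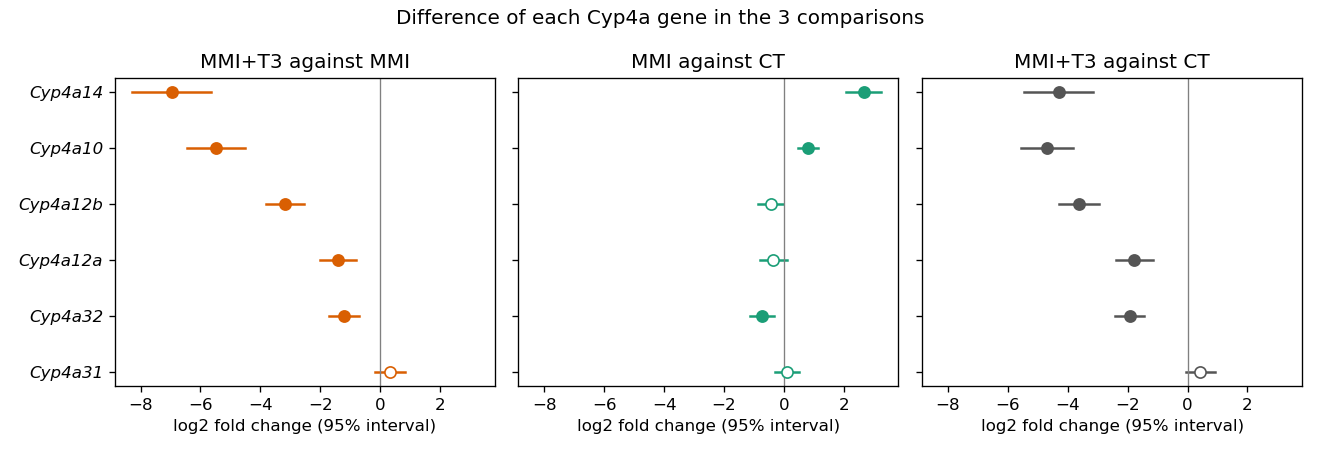
The log2 fold change of each Cyp4a gene with its 95% interval in MMI+T3 against MMI, MMI against CT and MMI+T3 against CT, with filled points where the edgeR adjusted p was under 0.05. In both comparisons of MMI+T3 the 5 genes other than Cyp4a31 are filled and below 0, whereas in MMI against CT Cyp4a14 (2.67) and Cyp4a10 (0.81) are above 0 and Cyp4a32 (-0.72) is below it.

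The effect of hypothyroidism was examined by comparing MMI mice to CT mice. Here Cyp4a14 and Cyp4a10 were higher in MMI, Cyp4a32 was lower, and the other 3 members were not called. Over 13925 genes tested, 2.48% were called higher and 2.80% lower. The CT libraries had been deposited in a separate count table, and table and group cannot be told apart, nor can other actions of methimazole and perchlorate be told apart from the loss of hormone.

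Cyp4a14 had the same MMI levels as above, against 115.5, 229.7 and 188.3 CPM in CT libraries. Every MMI library was above every CT library by a wide margin. This log2 change of 2.67 (SE 0.26, 95% interval 2.09 to 3.25) had an edgeR adjusted p of 0.0001839 and was called in all 14 alternatives that kept the copies apart. Cyp4a10 had 366.0, 463.6 and 402.1 CPM in CT libraries, also with no overlap with MMI. Its log2 fold change in MMI was smaller, 0.81 (SE 0.16, 95% interval 0.46 to 1.15, edgeR adjusted p = 0.01336). The Cyp4a10 call was lost when all 9 libraries were fitted together (adjusted p = 0.181) and without CT replicate 1 (0.0702) or CT replicate 3 (0.0771), with adjusted p between 8.33e-05 and 0.181 over the 14 alternatives.

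Cyp4a32 had 18.7, 27.9 and 26.2 CPM in CT libraries, all above the MMI libraries, and its log2 fold change in MMI was -0.72 (SE 0.18, edgeR adjusted p = 0.04503). This call is weak. It was lost in 8 of 14 alternatives, with adjusted p up to 0.204, namely with upper quartile scaling, with limma-voom, in the fit of all 9 libraries and without any one of MMI replicates 1, 2 and 3 and CT replicates 2 and 3. Merged with Cyp4a31 and the far more abundant Cyp4a10, the value was 0.74, the opposite direction. By construction the merged value follows Cyp4a10, so it does not bear on the Cyp4a32 call.

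Cyp4a12a had 305.6, 390.3 and 520.2 CPM in CT, and Cyp4a12b had 94.1, 157.0 and 132.6 CPM. In both genes the MMI and CT libraries overlapped. Relative to CT, the log2 change was -0.36 for Cyp4a12a (95% interval -0.81 to 0.09, edgeR adjusted p = 0.3751) and -0.44 for Cyp4a12b (95% interval -0.85 to -0.03, edgeR adjusted p = 0.2234). Cyp4a31 had 6.33, 6.75 and 7.70 CPM in CT libraries, within or just under its MMI levels, and a log2 fold change of 0.10 (95% interval -0.30 to 0.50, edgeR adjusted p = 0.8059).

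MMI+T3 mice were then compared to CT mice to see where the members stood relative to untreated liver. The 5 genes that were lower in MMI+T3 than in MMI were also lower than in CT, against a background of 12.3% of 13847 genes called lower and 13.3% higher. This comparison shares its MMI+T3 libraries with the first and its CT libraries with the second, so the values are given side by side and are not independent. Here too, the separate count table of CT cannot be told apart from the group. On the log2 scale, MMI+T3 relative to CT was at -4.68 for Cyp4a10 (SE 0.39, edgeR adjusted p = 1.816e-05), -4.30 for Cyp4a14 (SE 0.52, edgeR adjusted p = 0.0002013) and -3.62 for Cyp4a12b (SE 0.30, edgeR adjusted p = 1.662e-05). It was -1.93 for Cyp4a32 and -1.78 for Cyp4a12a. No MMI+T3 library of these 5 genes reached the lowest CT library, and the share of all tested genes separated in this way is not reported here. Cyp4a31 was again not called, with 0.42 (95% interval -0.06 to 0.90, edgeR adjusted p = 0.1864). Without MMI+T3 replicate 3, Cyp4a14 moved to -5.41 and Cyp4a10 to -5.43.

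The order of the members by level changed with the treatment. To compare genes, CPM was divided by the length of the exons in kb. The exon model of Cyp4a32, of 1536 bases, held almost nothing beyond its 1530 coding bases, unlike those of the other members. In MMI, Cyp4a14 was first with 429.7 ± 115.5 CPM per kb and Cyp4a10 second with 336.8 ± 58.7, and the libraries of these neighbours overlapped. Cyp4a12a (129.0 ± 25.5), Cyp4a12b (38.9 ± 5.75), Cyp4a32 (9.44 ± 1.61) and Cyp4a31 (2.93 ± 0.30 CPM per kb) followed without overlap. Each of these is a mean ± SD over 3 libraries.

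In MMI+T3, Cyp4a12a was first with 49.2 ± 18.4 CPM per kb, and all of its libraries were above those of every other member. The other 5 members lay between 7.63 ± 5.30 CPM per kb for Cyp4a10 and 3.46 ± 3.19 for Cyp4a14, the last, and each overlapped its neighbours in the order. In CT, Cyp4a10 (194.7 ± 23.4) and Cyp4a12a (167.4 ± 44.6 CPM per kb) were first and second and overlapped, as did Cyp4a14 (68.4 ± 22.2) and Cyp4a12b (53.4 ± 13.2 CPM per kb) after them. Cyp4a32 and Cyp4a31 were last with 15.8 ± 3.19 and 2.76 ± 0.28 CPM per kb. Among 17144 genes ranked by CPM per kb within a library, Cyp4a14 was between 4846th and 9776th in MMI+T3, between 90th and 146th in MMI and between 697th and 1155th in CT.

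**Figure D4:**
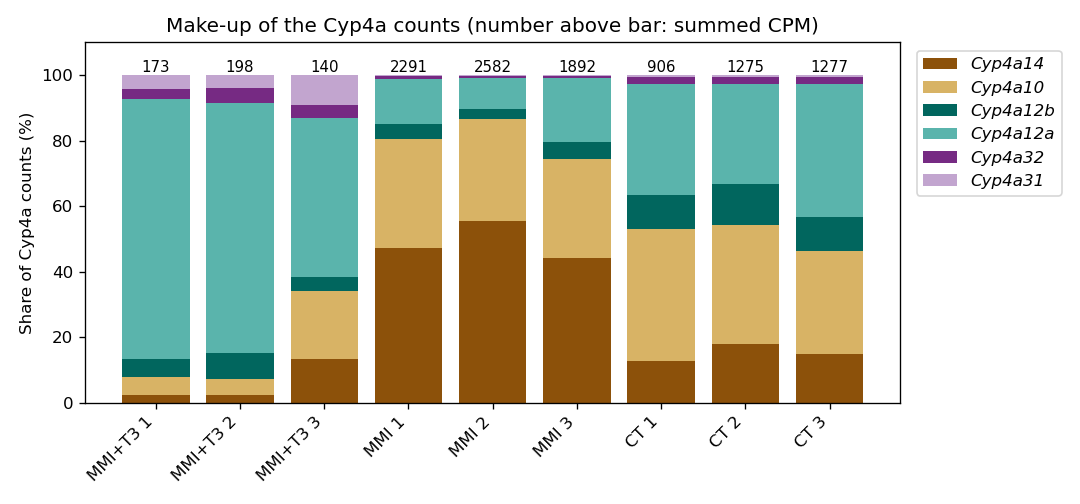
Stacked bars of the share of all Cyp4a counts, in percent, taken by each of the 6 genes in each of the 9 libraries, with the summed CPM of the family above each bar. Cyp4a12a takes the largest share in each MMI+T3 library (79.5%, 76.5% and 48.7%), Cyp4a14 takes the largest share in MMI (mean 49.0%), and in CT Cyp4a10 and Cyp4a12a take 36.1% and 35.0%.

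Ratios between members, taken on counts within a library, do not depend on scaling. The ratio of Cyp4a14 to Cyp4a10 was 0.410, 0.465 and 0.641 in MMI+T3, 1.42, 1.79 and 1.47 in MMI and 0.316, 0.495 and 0.468 in CT. Only in MMI did Cyp4a14 exceed Cyp4a10 in counts, and it did so in each of the 3 libraries. MMI+T3 and CT overlapped in this ratio although both genes were far lower in MMI+T3.

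The ratio of Cyp4a12a to Cyp4a12b was 14.4, 9.69 and 11.1 in MMI+T3, against 3.09, 3.19 and 3.76 in MMI and 3.25, 2.49 and 3.92 in CT. The MMI+T3 libraries did not overlap the others, whereas MMI and CT did. No test was run on these ratios.

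MMI+T3 replicate 3 differed from the other two of its group in the balance of the members. The counts of Cyp4a12a and Cyp4a12b together were 10.9, 11.7 and 1.56 times those of Cyp4a10 and Cyp4a14 in MMI+T3 replicates 1, 2 and 3, against 0.230, 0.145 and 0.333 in MMI and 0.830, 0.789 and 1.11 in CT. Thus replicate 3 had more Cyp4a10, Cyp4a14 and Cyp4a31 and less Cyp4a12a and Cyp4a12b than replicates 1 and 2. Of 39 other PPARα target genes, 14, 11 and 14 had their highest MMI+T3 level in replicates 1, 2 and 3. Among 9955 genes with at least 5 CPM on average, 33.68%, 33.29% and 33.03% did. By this count, which ignores the size of the differences, replicate 3 did not stand out from replicate 1 for this list.

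As Cyp4a31 is a near copy of Cyp4a10, their counts were also compared within libraries. Cyp4a31 counts came to 77.0%, 82.5% and 43.5% of Cyp4a10 counts in MMI+T3, to 1.08%, 0.863% and 1.22% in MMI and to 1.73%, 1.46% and 1.91% in CT. Cyp4a32 counts came to 53.6%, 88.5% and 19.0% of Cyp4a10 counts in MMI+T3, 2.16%, 1.92% and 2.06% in MMI and 5.10%, 6.01% and 6.52% in CT. Neither share was fixed across groups. Within MMI+T3, the library with the most Cyp4a10 also had the most Cyp4a31, and whether some of those reads came from the other copy was not tested.

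The other PPARα target genes, a list of 39 without the family, were lower in MMI+T3 than in MMI for 30 genes and higher for 2, with a median log2 fold change of -1.07, against -0.02 over all genes tested. Acot1, a cytosolic acyl-CoA thioesterase, had the smallest adjusted p of the list, at a log2 change of -6.36 (SE 0.35, edgeR adjusted p = 1.031e-06). Vnn1, a pantetheinase, had -2.82 and Retsat, a retinol saturase, -2.83. The 2 higher genes were Mgll, monoacylglycerol lipase, and Decr2, a peroxisomal reductase, and with upper quartile scaling or without any one of MMI+T3 replicates 1, 2 and 3 and MMI replicates 1 and 2 only 1 gene was called higher. Cyp4a14, at -6.96, was below every gene of this list, and Cyp4a10, at -5.47, was below every gene but Acot1.

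Ehhadh, the bifunctional enzyme of peroxisomal oxidation, had a log2 change of -1.33 in MMI+T3 against MMI (edgeR adjusted p = 0.00032). The receptor gene Ppara itself was at 53.2 ± 14.0 CPM in MMI+T3, 51.5 ± 8.58 CPM in MMI and 54.8 ± 5.06 CPM in CT. Its groups overlapped in all 3 comparisons, with log2 changes of 0.03 (edgeR adjusted p = 0.9474) for MMI+T3 against MMI, -0.08 for MMI against CT and -0.06 for MMI+T3 against CT.

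In MMI against CT, where Cyp4a14 and Cyp4a10 were higher, 6 of the 39 other PPARα target genes were called higher and 0 lower by edgeR, with a median of 0.02 against 0.01 over all genes. At an unadjusted edgeR p under 0.05, 12 of the list were higher and 3 lower. DESeq2 called 8 higher and 1 lower, and limma-voom called 5 higher and 0 lower. The 3 with the smallest adjusted p were Cd36, a fatty acid transporter (1.55), Acot4, a peroxisomal thioesterase (1.13), and Fgf21, a hormone of the fasting liver (4.40). Fgf21 was barely detected, with 0.816, 1.24 and 2.52 CPM in MMI, against 0.0466, 0 and 0.150 CPM in CT, so the size of its fitted change is not a reliable fold. Without MMI replicate 3, 12 genes of the list were higher. Ehhadh (0.43, edgeR adjusted p = 0.2084) was not called.

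Relative to CT, 31 of 38 tested genes of the list were lower in MMI+T3 and 2 were higher, with a median of -1.04 against 0.01 over all genes. Acot1 had -5.99, Acadm, the medium-chain dehydrogenase of mitochondria, -1.69, and Retsat -2.33. Fgf21 and Mgll were the 2 higher genes. Cyp4a10, at -4.68, and Cyp4a14, at -4.30, were lower than every gene of the list but Acot1.

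**Figure D5:**
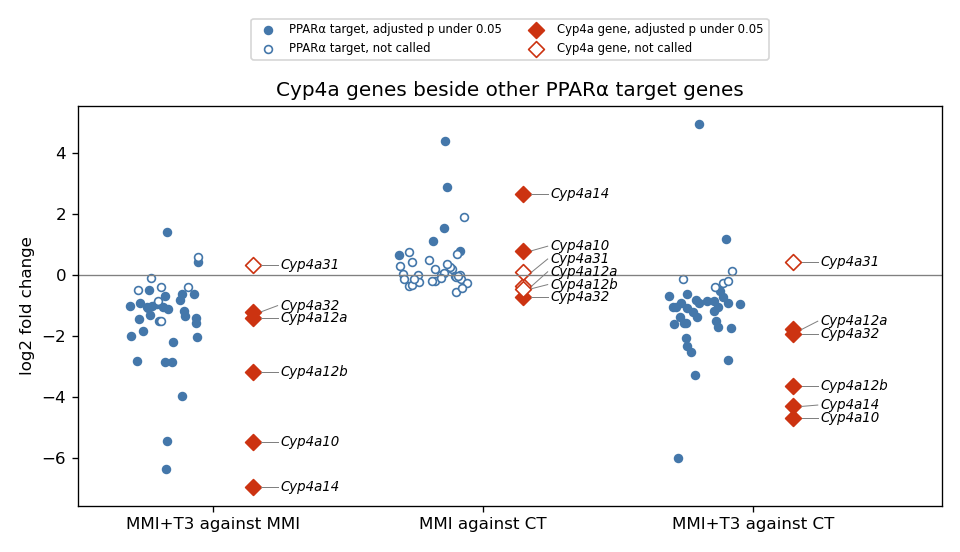
The log2 fold change of the 6 Cyp4a genes (red diamonds, named) and of the other PPARα target genes (blue circles) in the 3 comparisons, filled where the edgeR adjusted p was under 0.05. In MMI+T3 against MMI most of both sets are below 0 and Cyp4a14 is the lowest point, whereas in MMI against CT most PPARα targets are near 0 and not called while Cyp4a14 is at 2.67.

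Of 14 other Cyp4 genes listed, 9 were tested in MMI+T3 against MMI, and 2 of them were lower, with a median of -0.21. Cyp4f15, which hydroxylates leukotrienes and other fatty acids, had -0.79 (edgeR adjusted p = 0.001877), and Cyp4v3, another fatty acid hydroxylase, had -0.71 (edgeR adjusted p = 0.03508). Cyp4f14, the leukotriene B4 hydroxylase of mouse liver, was at 177.4 ± 11.7 CPM in MMI+T3, 253.1 ± 64.0 CPM in MMI and 375.0 ± 16.0 CPM in CT. Its log2 change of -0.53 in MMI+T3 against MMI was not called (edgeR adjusted p = 0.06181).

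In MMI against CT, Cyp4v3 was the only one of 8 other Cyp4 genes called, with -0.90 (edgeR adjusted p = 0.02447). Cyp4f14 had -0.55 and Cyp4f39, known from skin, 1.33, neither of them called (edgeR adjusted p = 0.08734 and 0.1989). In MMI+T3 against CT, 4 of 9 were lower and 2 higher, led by Cyp4v3 (-1.61), Cyp4f14 (-1.09) and Cyp4f15 (-1.01).

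For the steps after the hydroxylase, 10 of 20 genes of omega oxidation and peroxisomal oxidation of dicarboxylic acids were lower in MMI+T3 than in MMI and 2 were higher, with a median of -0.56. Several of these genes also stand in the PPARα list. Crot, which passes shortened acyl groups out of peroxisomes, had -1.88 (SE 0.17, edgeR adjusted p = 3.393e-05), Acaa1b, a peroxisomal thiolase, -1.58, and Aldh3a2, the fatty aldehyde dehydrogenase, -1.44. In MMI against CT, 3 were lower, namely Abcd3, a peroxisomal importer of dicarboxylic acids (-0.76), Adh4 (-0.68) and Scp2, a peroxisomal thiolase and lipid carrier (-0.68). Relative to CT, 14 were lower in MMI+T3 and 2 higher, with Crot at -2.04, Acsl1, an acyl-CoA synthetase, at -1.57 and Aldh3a2 at -1.51.

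Por, the reductase that passes electrons to microsomal P450 enzymes, was not called in MMI+T3 against MMI (0.18, edgeR adjusted p = 0.5269). Of its 4-gene list, only Cyb5a, cytochrome b5, was lower (-0.84). Among 23 nuclear receptors and regulators, 8 were higher and 3 lower in MMI+T3 than in MMI. The other PPAR genes went in opposite directions, with Ppard at 3.01 and Pparg at -1.31. Both were named after their values were seen, like Acot3, Cyb5a, Mgll, Decr2, Mup7 and Lrp2.

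Since Cyp4a12a is known as male-biased, it was set beside 21 other male-biased liver genes. In MMI against CT, 17 of these were lower, with a median of -1.90, whereas Cyp4a12a had -0.36 and was not called. Elovl3, a fatty acid elongase, had -2.49, and Mup7, a major urinary protein, -7.51. In MMI+T3 against MMI, 10 of the 21 were higher and 2 lower, with a median of 0.87, while Cyp4a12a was lower at -1.42 and Elovl3 had 0.69 (edgeR adjusted p = 0.07576). In MMI+T3 against CT, 9 were lower and 2 higher, with a median of -0.41. Of 15 female-biased genes tested, 5 were higher and 3 lower in MMI+T3 than in MMI, with a median of -0.35, and in MMI against CT 6 of 13 were higher, with a median of 1.29. Cyp2b9, a female-biased P450 and one of the 3 lower genes, had 7.86 ± 4.43 CPM in MMI+T3, 158 ± 98.5 CPM in MMI and 0.465 ± 0.0707 CPM in CT.

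Markers of some other liver cell types also differed. In MMI+T3 against MMI, 0 of 12 endothelial, 0 of 13 stellate cell and 0 of 5 cholangiocyte markers were called. Of 5 erythroid markers, 1 was lower in that comparison. All 12 macrophage and Kupffer cell markers were higher in MMI+T3 than in MMI, with a summed level of 348 to 679 CPM in MMI+T3, 121 to 159 CPM in MMI and 148 to 188 CPM in CT. Of 10 hepatocyte markers, 4 were lower and 1 higher in MMI+T3 against MMI, with a median of 0.10, and 6 were lower in MMI+T3 against CT. All 12 endothelial markers were above 0 in MMI against CT, with a median of 0.60 and 3 of them called higher, and 6 were called higher in MMI+T3 against CT. Their summed level was 393 to 419 CPM in MMI+T3, 375 to 485 CPM in MMI and 261 to 341 CPM in CT. Alb averaged 12158 ± 743 CPM in MMI+T3, 20197 ± 1761 CPM in MMI and 24353 ± 994 CPM in CT. In whole liver, fewer cells of a type and less RNA per cell cannot be told apart, and the part of these markers in the Cyp4a results was not tested.

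To find genes whose pattern was most like that of a member, log2(CPM + 0.5) was set to a mean of 0 for each gene. The root mean square difference was then taken over the 9 libraries for 9583 genes with at least 5 CPM on average. Cyp4a genes and predicted genes (symbols of the Gm and Rik kind) were left out of these 9583, so a nearer predicted gene would not appear. The measure describes likeness only. For Cyp4a10, the nearest genes outside the family were Acot1 (0.383), Hsd17b6, a steroid and retinol dehydrogenase (0.398), the antisense gene Hectd2os (0.502), Cyp2c23, an arachidonic acid epoxygenase (0.853), and Serpina7, thyroxine-binding globulin (0.887). Acot1 had 0.673, 55.8 and 43.1 CPM on average in MMI+T3, MMI and CT. Cyp4a14 itself was at 0.859 from Cyp4a10, so that 4 of the compared genes outside the family were closer to Cyp4a10. In MMI+T3, Acot1 and Serpina7 averaged 0.673 and 0.412 CPM, about as little as the added 0.5. Their distances, here and for Cyp4a14 below, therefore depend on that constant, and no other constant was tried.

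For Cyp4a14 the nearest were Serpina7 (0.556), Hsd17b6 (0.747), Hectd2os (0.954), Acot1 (1.09) and the noncoding Meg3 (1.51). Serpina7 averaged 0.412 CPM in MMI+T3, 135.9 CPM in MMI and 22.6 CPM in CT, the same order of groups as Cyp4a14. For Cyp4a12a the nearest were Neb, nebulin (0.219), Cyp2c67 (0.228), Fabp1, the liver fatty acid carrier (0.243), Zfp707 (0.283) and Eps8l2 (0.291). The nearest family member to Cyp4a12a was Cyp4a32 (0.401) and not its sequence partner Cyp4a12b (0.862). Cyp4a10 was at 1.92 from Cyp4a12a.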

How the data were processed

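Liver RNA was sequenced in 9 libraries of 3 groups, grouped by the sample labels. What the authors deposited were raw read counts for each gene, as a table of 17758 genes for the MMI and MMI+T3 libraries and a table of 17477 genes for CT, both already filtered on low counts. The study's methods name STAR, whereas the submitters' processing notes name HISAT2 2.1.0, beside HTSeq 0.6.1p1 and GRCm38. The strand setting and the treatment of reads with several matches are not given in the sources used here, so near copies and the antisense gene Hectd2os are uncertain. In the first table, 21 symbols turned into dates were restored from gene IDs.

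For every comparison, edgeR 4.0.16 (R 4.3.3) was run on the 6 libraries concerned, with TMM scaling, filterByExpr at its default minimum count of 10, the quasi-likelihood test and Benjamini-Hochberg adjustment over all genes tested at 0.05. Comparisons with CT used the 17154 genes in both tables. CPM was scaled over all 9 libraries. The code was tested on simulated counts. Lengths and coding sequences came from GENCODE M21 (GRCm38), promoters from RefSeq (GRCm38.p6), and alignments from Biopython 1.88. Proteins were not analysed here.

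The members and lists were chosen with earlier results of these data known. By rule, the text names the 6 members, the 3 genes with the smallest adjusted p per comparison in the lists of PPARα targets, other Cyp4 genes and omega oxidation, and Ppara, Ehhadh, Cyp4f14, Por, Dio1, Elovl3 and Cyp2b9, and the 5 genes most like Cyp4a10, Cyp4a14 and Cyp4a12a. Not every gene under the rule is reported here. Alternatives were DESeq2 1.42.0 size factors or its Wald test, upper quartile scaling, no filter, at least 50 counts in at least 3 libraries, limma-voom 3.58.1, all 9 libraries in 1 fit, a replicate block, each library left out, copies merged, and CPM on raw totals or DESeq2 size factors.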

Additional observations from a re-analysis of the deposited data

How the results depend on the processing

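In both comparisons of MMI+T3, 5 Cyp4a genes were called lower in every alternative that kept the copies apart. In MMI against CT, 736 genes were called, but 1157 by DESeq2's Wald test, and 341 to 783 with 1 library left out. The number of Cyp4a genes called lower there, 1, was 0 with upper quartile scaling, with limma-voom and with all 9 libraries in 1 fit, and 0 to 1 with 1 library left out. The number called higher, 2, was 1 with all 9 libraries in 1 fit and 1 to 2 with 1 library left out. Leaving out a library also removes residual degrees of freedom. What caused these changes was not tested in any setting. Merging Cyp4a31 and Cyp4a32 with the far more abundant Cyp4a10 reversed, by construction, Cyp4a31 in MMI+T3 against MMI (-4.54) and against CT (-3.80) and Cyp4a32 in MMI against CT (0.74). With the replicate number as a block, the log2 fold change in MMI+T3 against MMI was -5.67 for Cyp4a10 and -7.27 for Cyp4a14, and no Cyp4a call changed in any comparison. Genes called with the block rose to 2530 from 2400 in MMI+T3 against MMI and to 984 from 736 in MMI against CT. In MMI+T3 against CT they rose to 3759 from 3548. Correlations of same-numbered libraries, as deviations from their group means, ranged from -0.102 to 0.259. Libraries with different numbers were not correlated, so whether the numbers mark a pairing or a batch was not tested. No scaling moved the median of all genes by more than 0.1. Group means in CPM moved by less than 1 SD under the other scalings. Counts of 75 to 93 for Cyp4a14 in MMI+T3 replicates 1 and 2 limit its precision there.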
